A study of Mus musculus with 6 samples.

Results

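ATAC-seq peak calls were examined at 10 genes that mark cells outside the intestinal epithelium: 8 genes of mesenchymal cells (Col1a1, Col1a2, Col3a1, Pdgfra, Pdgfrb, Acta2, Des and Twist2) and 2 genes of endothelial cells (Pecam1 and Cdh5), out of 21911 protein-coding genes of the GENCODE M21 annotation on chromosomes 1 to 19, X and Y. In ATAC-seq a transposase inserts adapters into accessible DNA, and a peak marks a place where the aligned fragments pile up above the local background. The material was intestinal crypts of mice, dissociated to single cells, in 3 samples of wild-type (WT) and 3 of Arid3a conditional knockout (cKO) animals. The cKO animals were VillinCre-ERT2+/-; Arid3a fl/fl, in which the Villin promoter drives a tamoxifen-dependent Cre in intestinal epithelial cells. Both groups received tamoxifen on 3 consecutive days and were culled 1 month after the first injection. The Cre and floxed-allele status of the WT animals was not given in the sources used here. Because the Cre is expressed in the epithelium, the deletion was not directed at the mesenchymal and endothelial cells themselves. A peak was assigned to a gene when its summit lay in the gene body or within 10 kb of either end (the window). The question asked of these genes was how much open chromatin of stromal type each crypt preparation held, and whether it differed with genotype.

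Crypts are epithelial pits embedded in a lamina propria of fibroblasts, smooth muscle cells, pericytes and vessels, and a crypt preparation can carry over some of these cells. Fibroblasts make the fibrillar collagens and respond to platelet-derived growth factor, which maintains mesenchymal cells through the receptors PDGFRA and PDGFRB. Smooth muscle and pericytes are marked by contractile and cytoskeletal proteins, and endothelium by the junction proteins PECAM1 and VE-cadherin.

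The lists held 40492 to 58297 peaks, and the background coverage implied by the caller's own columns was 1.75 to 2.29 fragments per base. WT 1 had the shortest list and cKO 1 the longest. The label of the tissue was set against 12 epithelial genes, by definitions of a start chosen after the data were seen. A peak lay over the 5′ end of 8 of them (66.7%) in all 6 lists, against 49.0% of protein-coding genes. These were Epcam, Cdh1, Vil1, Krt8, Krt18, Cdx1, Cdx2 and Lgr5. No peak lay over the 5′ end of any of 12 genes of other organs, such as Alb, in any list, which held for 42.5% of protein-coding genes. A narrower count took summits from 1000 bp upstream to 100 bp downstream of the 5′ end. By it, 3 of the epithelial genes (Cdh1, Vil1 and Cdx2, 25.0%) were called in all lists, close to the 25.9% of protein-coding genes. So was 1 gene of other organs, the muscle creatine kinase gene Ckm. The epithelial genes thus stood above the background by the first count only.

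None of the 10 mesenchymal and endothelial genes had a peak over its 5′ end in any of the 6 lists. For comparison, 42.5% of protein-coding genes had no peak over the 5′ end in any list and 49.0% had one in all 6. The count by summit also gave 0 of 10 genes in any list, where 51.5% of protein-coding genes had none in any list and 25.9% had one in all 6. When every annotated transcript start was used, Col1a1 and Pdgfra were counted in all 6 lists, against 44.5% of protein-coding genes, and Des in WT 3, cKO 1 and cKO 3. All of these calls came from starts of shorter transcripts inside the genes. In bulk material, fewer cells of a type and less open chromatin per cell cannot be told apart, and an absent call gives no level of expression. An absent call also does not show that no such cell was present, only that fragments did not exceed the background at this depth.

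The sequence around the 5′ end differed among these genes in its content of CpG, the dinucleotide that is common in promoters of broadly used genes. Over 250 bases before and 50 after the 5′ end, the ratio of observed to expected CpG was 0.00 in Col3a1, 0.16 in Col1a2, 0.19 in Cdh5, 0.22 in Pdgfra and Acta2, 0.25 in Pecam1, 0.31 in Pdgfrb, 0.36 in Col1a1, 0.39 in Des and 0.80 in Twist2. Only Twist2 reached a ratio of 0.6. Of the 12192 promoters under that ratio, 77.0% had no summit at the 5′ end in any list, and of the 9719 at or above it, 19.4% had none. The 250 bases before the starts of Col3a1 and Twist2, the lowest and the highest of the 10, are shown from RefSeq on GRCm38, plus strand, with CpG in capitals, at chr1:45311288-45311537 and chr1:91801211-91801460.
Col3a1 upstream: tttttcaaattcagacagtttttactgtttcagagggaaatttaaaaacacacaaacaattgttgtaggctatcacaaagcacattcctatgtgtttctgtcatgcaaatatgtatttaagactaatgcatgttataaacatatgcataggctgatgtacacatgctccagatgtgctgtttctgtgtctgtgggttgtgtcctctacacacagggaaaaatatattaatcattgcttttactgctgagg
Twist2 upstream: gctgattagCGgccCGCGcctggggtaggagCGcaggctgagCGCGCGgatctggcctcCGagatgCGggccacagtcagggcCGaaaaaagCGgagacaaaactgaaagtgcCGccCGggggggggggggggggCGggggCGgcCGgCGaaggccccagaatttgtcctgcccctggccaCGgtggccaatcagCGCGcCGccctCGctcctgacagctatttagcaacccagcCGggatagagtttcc
The Col3a1 stretch held 0 CpG and the Twist2 stretch 23, and no peak was called in the window of either gene.

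Windows, as opposed to 5′ ends, did hold peaks. Of the 10 genes, 6 had at least 1 peak in the window in all 6 lists (Col1a1, Pdgfra, Pdgfrb, Acta2, Des and Pecam1), against 70.5% of protein-coding genes, and 3 had none in any list (Col1a2, Col3a1 and Twist2), against 21.9%. Cdh5 was called in WT 3 and cKO 1 only. Merging the 6 lists gave 40 regions in these windows out of 71286 in all. Of the 40, 21 lay in the bodies of the genes, 5 at an internal start of them, 6 in or at the start of another gene and 8 between genes. Each peak was ranked by its fold over the local background within its own list, as a percentile in which 100 is the highest fold. 

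**Figure D1:**
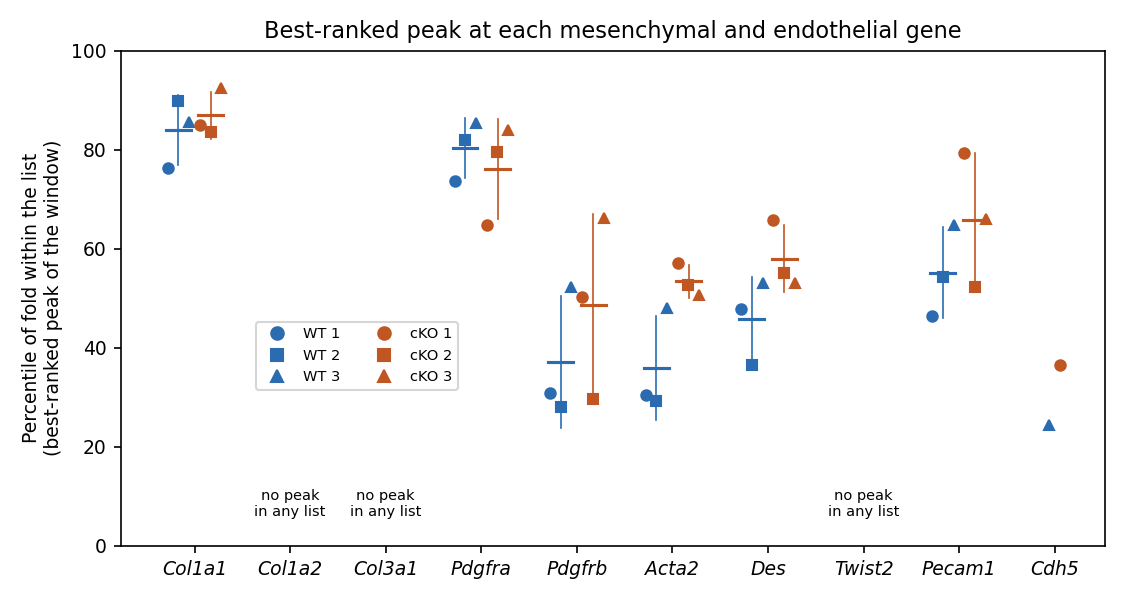
Percentile of fold within the list (vertical axis) of the best-ranked peak in the window of each of the 10 genes (horizontal axis). Points are the 6 lists, horizontal bars the mean and vertical bars the SD of 3 lists per genotype. Col1a1 and Pdgfra have the highest group means, Acta2 and Des are higher in every cKO list than in any WT list, and Col1a2, Col3a1 and Twist2 have no peak.

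Among the collagen genes, Col1a1 (ENSMUSG00000001506.10, chr11:94936224-94953042, plus strand), which encodes the alpha 1 chain of type I collagen, held 3, 4 and 4 peaks in WT lists 1, 2 and 3 and 5, 4 and 4 in cKO 1, 2 and 3. Col1a2 (ENSMUSG00000029661.16, chr6:4504814-4541544, plus strand), whose alpha 2 chain assembles with it in the same fibre, held none, and the summit nearest to its 5′ end was 95.94 to 96.34 kb away. Col3a1 (ENSMUSG00000026043.18, chr1:45311538-45349706, plus strand), the gene of type III collagen, also held none, with the nearest summit 483.91 to 484.01 kb away. The windows of the partner chains of type I collagen therefore differed in their calls in every list, while neither gene had a peak at its 5′ end.

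The best-ranked peak at Col1a1 stood at percentiles 76.3, 89.9 and 85.7 in WT lists 1, 2 and 3 and 85.0, 83.6 and 92.4 in cKO 1, 2 and 3. The mean was 83.97 ± 7.0 in the WT lists and 87.0 ± 4.74 in cKO (SD, n = 3 per genotype), the groups overlapped and an exact two-sided permutation test gave p = 0.6. With 3 against 3 the smallest p of this test is 0.1. The labels do not say that each sample came from a separate animal, so these p-values measure only the spread between samples, which may be technical. The direction of the difference turned to -0.82 without WT 1. Across genes with a peak in every list, the median of this best percentile was 86.7, so Col1a1 ranked near the middle of such genes.

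Of 4 regions at Col1a1, 3 were called in all lists. The best-ranked, at chr11:94957726-94958940, lay 22.144 kb from the 5′ end, past the end of Col1a1, at the start of the small RNA gene Gm24877. Its implied pileup, the number of fragments at the summit, was 41, 85 and 89 in the WT lists and 109, 65 and 94 in cKO lists. A region in an intron of Col1a1, at chr11:94936912-94938038, had its summit 0.983 kb inside the gene, at the start of a shorter processed transcript of the gene, with percentiles of 75.9, 61.6 and 74.6 in the WT lists and 85.0, 69.7 and 74.1 in cKO lists. The other lay 7.278 kb upstream, between genes, at 58.1, 74.4 and 82.8 in the WT lists and 69.5, 53.7 and 79.9 in cKO lists. None of these separated the genotypes. A weak intronic region 6.308 kb inside the gene was called in all 3 cKO lists at percentiles 26.0, 4.5 and 9.4 and in WT 2 at 16.8.

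Pdgfra (ENSMUSG00000029231.15, chr5:75152292-75198215, plus strand) encodes the receptor that marks fibroblasts and the telocytes next to crypts. It held 3, 2 and 4 peaks in WT and 4, 1 and 2 in cKO lists. Its best peak ranked at 73.6, 82.0 and 85.4 in the WT lists and 64.8, 79.5 and 84.0 in cKO lists, in the same region in all 6, chr5:75155710-75157234, with 51, 91 and 122 fragments at the summit in WT and 111, 69 and 125 in cKO. The summit lay 4.014 kb inside the gene, in sequence annotated as UTR, at the start of a shorter transcript of Pdgfra and of Gm42803. The groups overlapped, with a difference of -4.26 percentile points and p = 0.6 (exact permutation test, two-sided). The sign turned to 1.41 without cKO 1 and to 0.24 when peaks were ranked by −log10 q.

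Pdgfrb (ENSMUSG00000024620.11, chr18:61045150-61085061, plus strand), the receptor of pericytes and smooth muscle, held 3, 5 and 4 peaks in WT and 5, 3 and 4 in cKO lists. The best percentile was 30.9, 28.1 and 52.3 in the WT lists and 50.2, 29.6 and 66.3 in cKO lists (difference 11.56, exact permutation p = 0.6), and ranking by −log10 q turned the difference to -0.37. It was 2.77 without cKO 3 and 21.12 without cKO 2, and 19.18 and 7.06 without WT 3 and WT 2. Of the 3 regions called in every list, the one in an intron, 23.344 kb inside the gene, had percentiles of 28.3, 28.1 and 52.3 in the WT lists and 50.2, 13.6 and 66.3 in cKO lists, on 17 to 40 fragments. WT 3, cKO 1 and cKO 3 were the higher lists. A region between genes 5.474 kb upstream ranked at 25.1, 14.1 and 31.8 in the WT lists and 11.8, 29.6 and 4.9 in cKO lists. The region farthest upstream belonged to a different gene: its summit lay in an exon of Cdx1, 9.401 kb from the Pdgfrb start. Cdx1 encodes an intestinal epithelial transcription factor and is among the epithelial genes above with a peak over the 5′ end in every list. This region gave the best percentile of WT 1. By fold it ranked at 30.9, 16.6 and 9.2 in the WT lists and 5.4, 10.5 and 3.7 in cKO lists. It ranked so although it held 44 to 105 fragments, fold being relative to the surrounding signal. Peaks in the Pdgfrb window are thus not all at a mesenchymal gene.

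Acta2 (ENSMUSG00000035783.9, chr19:34241090-34255590, minus strand) encodes smooth muscle actin. It held 1 peak in every list except cKO 3, which had 2. The peak shared by all lists, chr19:34243780-34244879, lay in an intron 11.307 kb from the 5′ end and ranked at 30.4, 29.3 and 48.1 in the WT lists and 57.1, 52.6 and 50.6 in cKO lists, on 15, 17 and 21 and on 31, 21 and 23 fragments. Every cKO list was above every WT list. The mean was 35.93 ± 10.53 in the WT lists and 53.42 ± 3.37 in cKO (SD, n = 3 per genotype, difference 17.49, exact permutation p = 0.1, the smallest possible). Ranked by −log10 q, the values were 21.4, 23.7 and 37.4 in the WT lists and 45.0, 44.1 and 37.2 in cKO lists, and the groups overlapped. With 50 kb either side as the window, a different peak was the best and the difference turned to -2.16.

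Des (ENSMUSG00000026208.9, chr1:75360329-75368579, plus strand), which encodes the muscle intermediate filament desmin, held 1, 1 and 2 peaks in WT and 2, 1 and 2 in cKO lists. The best peak in every list was at chr1:75369433-75370626, past the end of Des and in an exon of Gm15179, 9.551 kb from the Des start. It ranked at 47.9, 36.5 and 53.0 in the WT lists and 65.8, 55.1 and 53.1 in cKO lists, so that the highest WT list and the lowest cKO list were next to each other. The mean was 45.81 ± 8.43 in the WT lists and 58.01 ± 6.81 in cKO (SD, n = 3 per genotype, difference 12.2, exact permutation p = 0.1). By −log10 q the groups overlapped, at 44.0, 31.9 and 46.5 in the WT lists and 53.3, 46.4 and 42.6 in cKO lists. The difference was 0.049 with 50 kb either side and 7.57 without WT 2. Close to the 5′ end, a peak 0.269 kb inside the first part of the gene was called in WT 3 at percentile 20.9 and in cKO 1 at 54.9, on 14 and 21 fragments.

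Twist2 (ENSMUSG00000007805.4, chr1:91801461-91848028, plus strand), a basic helix-loop-helix transcription factor of mesenchyme, held no peak in any list. The nearest summit lay 66.67, 92.93 and 31.11 kb from its 5′ end in WT and 31.12, 92.88 and 30.87 kb in cKO lists. The distance thus varied between lists within each genotype.

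Of 6 genes with a peak in every list, 2 had a best percentile higher in every cKO list (Acta2 and Des) and 0 a lower one, against 4.02% and 6.83% of the 15457 protein-coding genes with a peak in every list. With 6 genes these counts give little to set against the background.

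Pecam1 (ENSMUSG00000020717.19, chr11:106654217-106750628, minus strand), an adhesion molecule of endothelial junctions that leukocytes and platelets also carry, held the most peaks of the 10 genes. Its window was also the widest, at 116.4 kb, the next being that of Twist2 at 66.6 kb. It held 6, 10 and 8 peaks in WT and 14, 9 and 14 in cKO lists, a mean of 8.0 ± 2.0 and 12.33 ± 2.89 (SD, n = 3 per genotype, exact permutation p = 0.2). The groups overlapped because cKO 2 lay between WT 3 and WT 2. The peaks merged into 17 regions, of which 15 lay in the gene body, only 2 of these in all 6 lists. None was at the 5′ end, where the nearest summit was 1.72 to 3.08 kb away, in the neighbouring gene Milr1. WT 1 lacked 4 body regions that every other list had. One of them, chr11:106657776-106658629, was the best-ranked at this gene by its median, at 54.3 in WT 2, 64.8 in WT 3 and 79.3, 51.5 and 66.0 in cKO lists. The best percentile at Pecam1 was 46.4, 54.3 and 64.8 in the WT lists and 79.3, 52.2 and 66.0 in cKO lists (difference 10.64, exact permutation p = 0.4), and turned to -5.57 with 50 kb either side. It was 3.67 ranked by −log10 q, 3.89 without cKO 1, 6.27 without WT 1 and 17.47 without cKO 2.

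**Figure D2:**
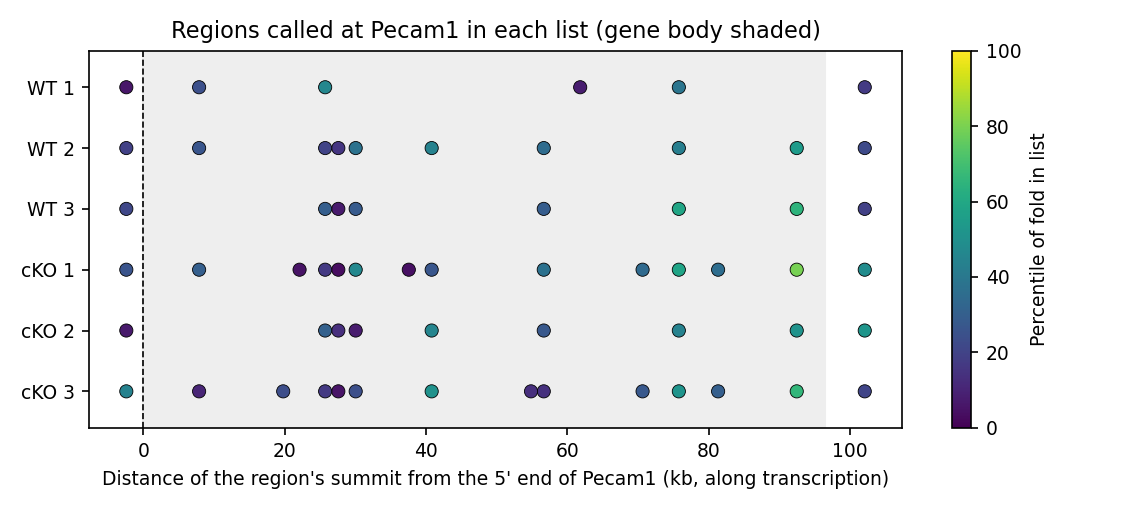
Regions called at Pecam1 in each of the 6 lists (rows) by distance of the summit from the 5′ end in kb along the direction of transcription (horizontal axis), with the gene body shaded and the colour of each point giving the percentile of fold in that list. cKO 1 and cKO 3 carry 14 regions each and WT 1 carries 6, none of them at the 5′ end.

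An intronic region of Pecam1, chr11:106709373-106710109, was called in all 3 cKO lists at percentiles 26.6, 45.6 and 50.6 and in WT 2 alone among WT lists at 44.3. Past the 3′ end of the gene, chr11:106648269-106649048 ranked at 17.2, 22.4 and 19.5 in the WT lists and 48.2, 52.2 and 20.7 in cKO lists, on 11 to 19 fragments. It was higher in cKO 1 and cKO 2, while cKO 3 lay within the WT range. Cdh5 (ENSMUSG00000031871.9, chr8:104101625-104144511, plus strand), which encodes VE-cadherin, had 1 region, downstream of the gene and 44.902 kb from its 5′ end, at percentile 24.3 in WT 3 and 36.6 in cKO 1. The 2 endothelial genes were therefore called to a different extent in the same lists.

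Sequences at the summits are shown for selected regions, on the plus strand of GRCm38. Each spans 201 bp centred on the summit of the merged region: the Col1a1 intron at chr11:94937107-94937307, the Acta2 intron at chr19:34244183-34244383, the region past the 3′ end of Pecam1 at chr11:106648435-106648635 and an intronic region of Pecam1 called in all lists at chr11:106724797-106724997. The first 3 regions ranked well or differed most between the genotype means, and the fourth ranked low, at a median percentile of 24.8. Capitals mark matches on either strand to a consensus of CTCF (the first 3 sequences), of AP-1 (TGANTCA, near the end of the third) and, in the fourth, of CDX factors (TTTATNG, the first match) and factors of the GATA family (the letters AGATAA, the other matches).
Col1a1 intron: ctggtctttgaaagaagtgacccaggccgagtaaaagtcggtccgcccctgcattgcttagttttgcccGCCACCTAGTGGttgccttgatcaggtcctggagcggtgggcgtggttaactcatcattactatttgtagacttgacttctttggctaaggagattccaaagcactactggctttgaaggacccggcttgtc
Acta2 intron: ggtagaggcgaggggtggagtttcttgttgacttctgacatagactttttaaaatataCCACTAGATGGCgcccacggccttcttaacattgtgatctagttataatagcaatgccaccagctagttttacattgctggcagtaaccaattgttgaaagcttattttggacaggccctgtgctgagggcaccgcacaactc
Pecam1 past the 3′ end: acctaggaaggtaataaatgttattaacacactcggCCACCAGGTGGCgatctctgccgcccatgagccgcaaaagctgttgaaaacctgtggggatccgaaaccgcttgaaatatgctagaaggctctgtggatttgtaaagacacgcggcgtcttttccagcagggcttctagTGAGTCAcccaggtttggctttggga
Pecam1 intron: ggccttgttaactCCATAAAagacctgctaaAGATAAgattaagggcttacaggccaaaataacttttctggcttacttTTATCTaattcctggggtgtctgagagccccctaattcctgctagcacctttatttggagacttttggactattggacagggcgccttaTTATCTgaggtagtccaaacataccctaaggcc
CTCF is a zinc finger protein that shapes chromatin loops in most cell types, and CDX factors are typical of intestinal epithelium. GATA factors are used there and in other cell types, and AP-1 is used widely.

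A CTCF match was found in 9 of the 40 regions (22.5%) and in 6.41% of all 71286 merged regions. Among the 13 regions called in all 6 lists it was found in 5, at Col1a1, Pdgfra, Pdgfrb, Acta2 and Pecam1, against 4.66% of the 32748 regions called in all lists. This consensus was searched after the sequences above had been read. The regions shown above with a match, at Col1a1, Acta2 and Pecam1, are themselves in both counts. The comparison with all regions is therefore not independent of that reading. Over all regions called in every list and holding a CTCF match, the median percentile was 52.5, 62.0 and 66.4 in the WT lists and 69.3, 57.8 and 64.0 in cKO lists, overlapping between the genotypes and with WT 1 the lowest. AP-1 was matched in 3 of 40 regions (7.5%, against 10.36% of all), CDX in 4 (10% against 11.47%) and GATA in 8 (20% against 12.79%). No match was found for the CArG box of serum response factor (1.01% of all regions), ETS CCGGAA (7.12%), HNF4 CAAAGTCCA (1.53%) or TCF CTTTGAT (3.51%). A match is a description of letters and no measure of binding, and no match says only that these letters were not in this stretch.

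The number of peaks at the 10 genes together was 17, 23 and 24 in WT lists 1, 2 and 3 and 32, 19 and 28 in cKO 1, 2 and 3. The mean was 21.33 ± 3.786 in the WT lists and 26.33 ± 6.658 in cKO lists (SD, n = 3 per genotype). The groups overlapped, with cKO 2 between WT 1 and WT 2. Leaving out 1 list at a time gave a difference of 2.17 to 8.67 peaks in place of 5, the highest without cKO 2 and the lowest without cKO 1. Ordered by these counts, the lists stood as they did by length, except that cKO 3 and WT 3 changed places. Per 10000 peaks of the list, the counts were 4.20, 4.54 and 4.36 in the WT lists and 5.49, 4.09 and 5.44 in cKO lists. Pecam1 carried most of the gap. Without it, the counts were 11, 13 and 16 in the WT lists and 18, 10 and 14 in cKO lists. The lists of cKO 1 and cKO 3 were thus above every WT list per 10000 peaks and that of cKO 2 was below every WT list. When every list was trimmed to the length of the shortest, keeping the peaks of highest −log10 q, the counts were 17, 17 and 14 in the WT lists and 15, 16 and 19 in cKO lists, a difference of 0.67 in place of 5.

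**Figure D3:**
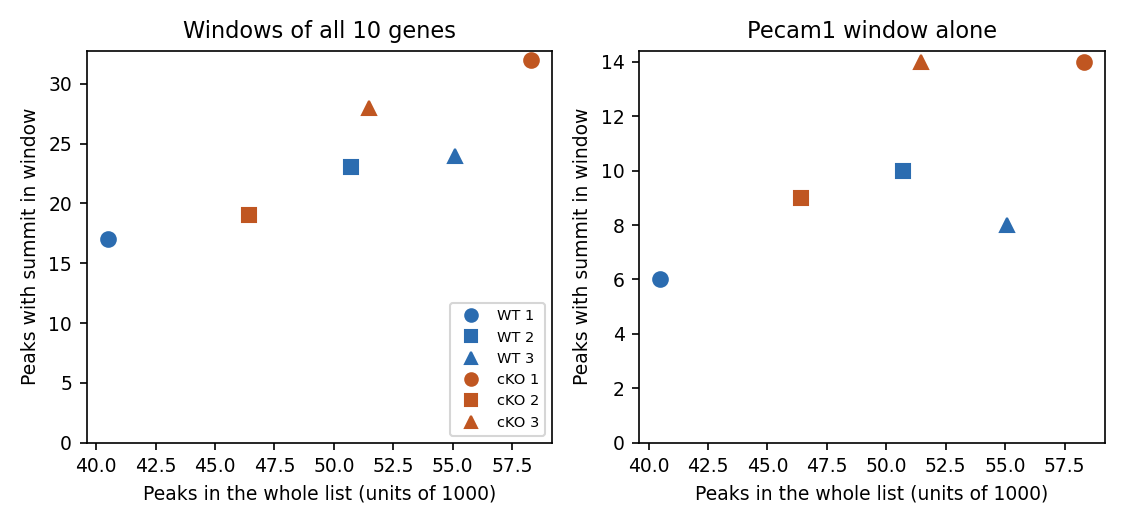
Peaks with a summit in the windows of all 10 genes (left) and of Pecam1 alone (right), on vertical axes from 0, against the number of peaks in the whole list, in units of 1000 peaks (horizontal axis). Each point is 1 list, and the counts run from 17 in WT 1 to 32 in cKO 1, and cKO 2 lies among the WT lists.

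The calls were also compared region by region. Of the 40 regions, 13 (32.5%) were called in all 6 lists and 12 (30.0%) in 1 list, against 45.9% and 20.9% of all merged regions. Of the 12, 5 were called in cKO 1, 4 in cKO 3, 2 in WT 1 and 1 in WT 3. No region was called in 3 cKO and 0 WT lists or in 3 WT and 0 cKO lists, which held for 0.464% and 0.111% of all merged regions. At 2 or more lists of one genotype and none of the other, there were 2 regions in cKO, both in introns of Pecam1 in cKO 1 and cKO 3, and 1 in WT, upstream of Pdgfrb in WT 2 and WT 3. The share over all merged regions was not computed for this looser rule, or by list for regions called in 1 list. These counts therefore have no background and cannot show whether calls leaned to a genotype. Peaks at these genes were of modest height, with a median implied pileup of 24 fragments and a range of 10 to 125.

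The 13 regions called in all lists had a median percentile of 47.9, from 9.9 to 84.6, where the median of all regions called in all lists was 66.2. The mean percentile was higher in cKO lists for 8 of the 13, with a median difference of 4.7 points, beside 49.3% and -0.09 over all 32748. No region passed limma on rank-based normal scores at an adjusted p under 0.05 (0.0% of the 32748), with 1964 regions (6.0%) under 0.05 before adjustment. Below 0.05 before adjustment were 2 of the 13. One was the Cdx1 exon in the Pdgfrb window, 12.4 points lower in cKO lists (SE 0.252 on the normal-score scale, on which the difference was -0.618). The other was the region past the 3′ end of Pecam1, 20.6 points higher (0.585, SE 0.25, on that scale). The genotypes overlapped at both. Without overlap, the regions of Acta2 and Des were higher in every cKO list and 0 were lower, against 4.66% and 7.04% of all 32748. For these 4 regions the adjusted p of limma was 0.776.

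**Figure D4:**
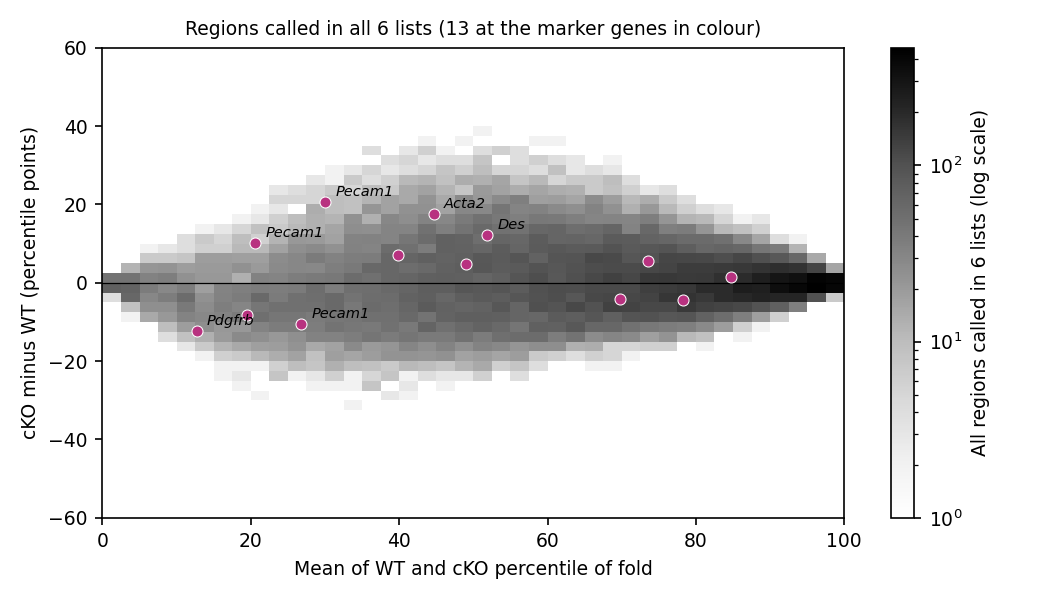
Difference in percentile of fold between cKO and WT means (vertical axis, percentile points) against the mean of both (horizontal axis) for regions called in all 6 lists. Grey cells count all 32748 regions on a log scale and coloured points are the 13 at the marker genes, which lie inside the cloud and between -12.4 and 20.6 points.

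The median of the best percentile over the genes with a peak summed up the ranks per list, and is not by itself a measure of cell content. It was 47.2, 45.4 and 53.0 in the WT lists and 64.8, 53.8 and 66.1 in cKO lists, a mean of 48.54 ± 3.974 and 61.57 ± 6.731 (SD, n = 3 per genotype). By this measure every cKO list was above every WT list, by 13.04 points in the mean, and 10.76 to 16.9 points with 1 list left out at a time. The gap depended on the column that ranked the peaks and on the window. Ranked by −log10 q, the medians were 52.7, 47.7 and 60.4 in the WT lists and 55.3, 51.6 and 55.4 in cKO lists, a difference of 0.51 points. With 50 kb either side they were 77.8, 87.9 and 86.4 in the WT lists and 82.8, 86.4 and 83.7 in cKO lists, a difference of 0.26 points. The gap thus did not hold on either of these scales. In the longer lists of the same cell types, given below, the genotypes overlapped in the median best percentile. No p was computed for a score over chosen genes.

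Longer lists of the same cell types were examined in the same way. Of 21 further mesenchymal genes, 1 (Fn1, 4.8%) had a peak over the 5′ end in all lists and 12 (57.1%) in none. Among protein-coding genes these shares were 49.0% and 42.5%. The number of further mesenchymal genes with such a peak was 2, 3 and 6 in the WT lists and 7, 5 and 4 in cKO lists. Of 15 further endothelial genes, 2 had one in all lists (Sox17 and Prox1) and 9 in none, with 2, 3 and 4 in the WT lists and 5, 4 and 5 in cKO lists. By this definition, chosen after the data were seen, the endothelial counts of cKO lists were at or above the highest WT list, and the mesenchymal counts overlapped. By summits near the 5′ end the endothelial counts were 2, 1 and 0 in the WT lists and 2, 0 and 1 in cKO lists, and window peaks were 35, 40 and 47 against 46, 36 and 44, so that the genotypes overlapped on both. The median best percentile of the further mesenchymal genes was 45.33, 57.53 and 51.23 in the WT lists and 64.32, 50.24 and 59.78 in cKO lists. For the further endothelial genes it was 49.15, 68.17 and 71.98 in the WT lists and 76.57, 66.25 and 68.96 in cKO lists. The genotypes overlapped in both lists of genes. Among 7 enteric neural genes, Gfap and Ret (28.6%) had a peak over the 5′ end in all lists and 3 (42.9%) had none. Among 12 leukocyte genes, Cd14 (8.3%) had one in all lists and 10 (83.3%) had none. These genes are named because their counts are small, after their values were seen.

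**Figure D5:**
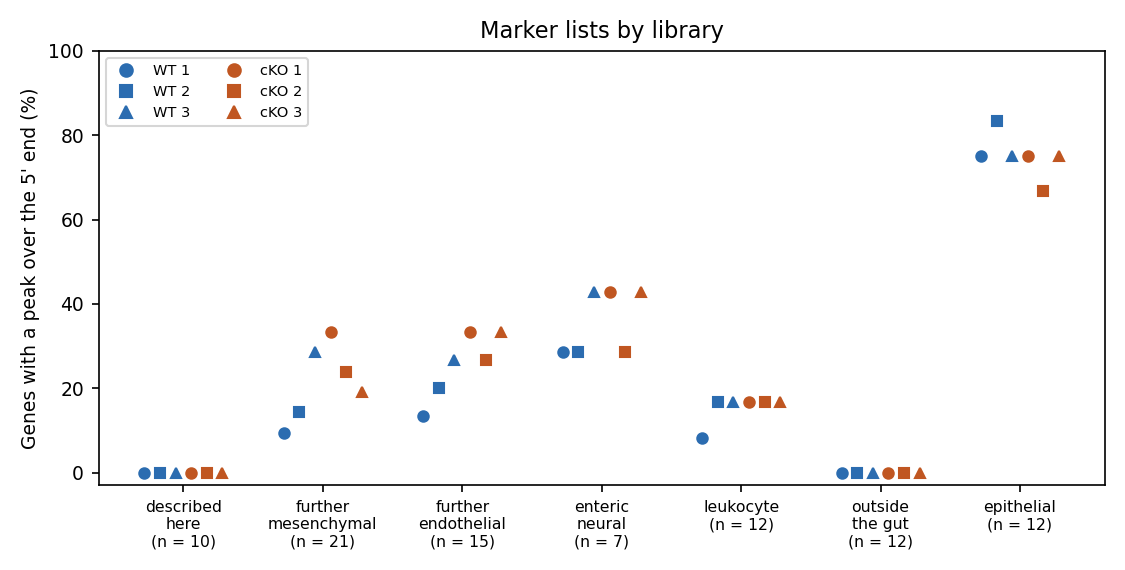
Share of genes with a peak over the 5′ end (vertical axis, percent) in each of the 6 lists, for the 10 genes described here and 6 other marker lists (horizontal axis, with the number of genes). The 10 genes and the 12 genes of other organs are at 0 in every list and the 12 epithelial genes are highest, whereas by summits near the 5′ end 1 gene of other organs and 3 to 5 epithelial genes were called per list.

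The 10 genes had 17 to 32 window peaks per list, the 21 further mesenchymal genes 21 to 42, the 15 further endothelial genes 35 to 47, the 12 leukocyte genes 18 to 21, the 12 genes of other organs 9 to 13 and the 12 epithelial genes 72 to 91. These counts were not scaled to the number of genes or the length of their windows. The epithelial genes had 74, 89 and 91 window peaks in WT and 80, 77 and 72 in cKO lists. The further mesenchymal genes had 21, 38 and 42 in the WT lists and 41, 32 and 33 in cKO lists, with WT 1 the lowest. The cKO lists lay within the WT range. The median best percentile was 31.7 to 80.0 per list for the genes of other organs and 78.7 to 88.7 for the leukocyte genes. For the epithelial genes it was 50.2 to 72.2. In WT 2, WT 3, cKO 1 and cKO 3 the genes of other organs ranked above the epithelial genes, so this rank did not follow tissue.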

How the data were processed

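Crypts of WT and Arid3a cKO mice, 3 samples per genotype, were profiled by ATAC-seq. The authors ran nf-core/atacseq with BWA against GRCm38, a blacklist filter and MACS narrow peak calling per sample, with an effective genome size of 2.6 Gb and no input control described. Each deposited list gives a score, a fold enrichment as a ratio to local background, −log10 p, −log10 q and a summit offset; the authors' score is derived from the deposited −log10 q. Per the submitters' processing notes, MACS2 and bedtools were used. Fold (not q) was ranked within each list. Fragment pileups were implied from the fold and p columns and are an inference.

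Windows were gene bodies with 10 kb either side in GENCODE M21. Lists on chromosomes 1 to 19, X and Y were merged where they overlapped by at least 1 base; 61 to 92 peaks per list elsewhere were left out. Samples were grouped by their genotype labels. The count model of the study needs reads per peak and was not used here. Percentiles of regions called in all lists were put on a normal-score scale and tested with limma 3.58.1 (R 4.3.3, two-sided, Benjamini-Hochberg, threshold 0.05), after a test on simulated data. For single genes an exact permutation test over the 6 samples was used, two-sided. Motifs were sought without mismatches on both strands in the 201 bp around the summit. All 10 genes are named, each with the region of highest median percentile and any region called in 3 lists of one genotype and at most 1 of the other, or without overlap between genotypes. The members, lists and rules were chosen with earlier results of these data known. Scripts ran under Python 3.11.15 with pandas 2.3.3, scipy 1.17.1 and pysam 0.24.0. Sequences came from GRCm38 and from RefSeq, whose promoter table held 6 of the 10 genes. The alternatives covered windows, ranking column, list length, −log10 q of at least 5, start definition, a replicate block and leaving out each list.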

Additional observations from a re-analysis of the deposited data

How the results depend on the processing

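Of 126 alternative values over 13 results, 5 moved (by more than the spread between replicates, or by over 1.5 times for a count of regions), 6 reversed and 115 did neither. Of the 115, 37 differed from the reported value by over 1.5 times. The causes were not tested. The median best percentile, 13.04 points higher in cKO lists, was 6.77 with the gene body alone, 0.26 with 50 kb either side and 0.51 ranked by −log10 q. The difference in member peaks was 0.67 at equal list length, that at Des 0.049 with 50 kb either side and that at Pecam1 3.67 by −log10 q. Relaxing the calls to at least 2 of 3 lists against 0 gave 2 cKO-only and 1 WT-only regions, with no share over all regions to set them against. Reversed differences were -0.82 at Col1a1 without WT 1, 1.41 at Pdgfra without cKO 1, 0.24 at Pdgfra and -0.37 at Pdgfrb by −log10 q, and -2.16 at Acta2 and -5.57 at Pecam1 with 50 kb either side. With 1 list left out at a time, the difference ranged from -0.82 to 6.02 at Col1a1, from -8.21 to 1.41 at Pdgfra, from 2.77 to 21.12 at Pdgfrb, from 3.89 to 17.47 at Pecam1, from 14.16 to 23.56 at Acta2 and from 7.57 to 15.8 at Des. The difference in member starts called ranged from 0.17 to 0.67, in member peaks from 2.17 to 8.67 and in the median best percentile from 10.76 to 16.9 points. Counting a start only at the 5′ end, by summit or by overlap, gave a difference of 0; these definitions and the CTCF consensus were chosen after seeing the data. limma called 0 regions under every alternative, with 941 to 5108 under 0.05 before adjustment when 1 list was left out, the highest without cKO 2.

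Deviations of same-numbered samples correlated at -0.272, -0.019 and 0.125, and those of other pairs at -0.328 to 0.308. With 3 lists per genotype these values cannot decide whether replicate numbers pair the samples. With the replicate block limma called 0 regions, with 1517 under 0.05 before adjustment. No read counts were used, and the smallest difference that the depth or the 3 samples per genotype could show was not estimated.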
